A study of Drosophila melanogaster with 4 samples.

Results

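Long noncoding RNA genes that lie between protein-coding genes were examined for ongoing transcription in Drosophila S2 cells. They were taken from the authors' GRO-seq table as rows whose symbol begins with CR, that are typed as ncRNA, that span 200 bp or more, and that overlap no protein-coding row on either strand. Of 16612 rows, 1365 met this rule. A further 600 CR rows of this length overlapped a coding row and were left out. At the length limit, the 4 rows of 191 to 198 bp that were otherwise eligible were all listed at 0. Of the 13 members of 200 to 210 bp, 12 were listed at 0, and CR44463 had 6.09 FPKM in Sample3 and 2.02 in Sample4.

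S2 is an established line from late embryos that resembles fly blood cells (hemocytes). All 4 libraries came from S2 cells of 1 condition, with no treatment in the labels. There were 2 libraries of 5'GRO-seq, called replicate 1 and replicate 2, and 2 of GRO-seq, called Sample3 and Sample4 as in the authors' table, whose columns do not say which replicate each is. GRO-seq lets engaged polymerases extend their RNA with bromouridine in isolated nuclei and sequences what was extended, so its values report polymerase activity and not the stable RNA. 5'GRO-seq keeps capped ends, which mark where transcription began. No label says whether libraries of an assay came from separate cultures, so their spread may be technical. With 2 libraries per assay and no contrast, no test across samples could be made. Shares carry 95% intervals (exact, Clopper-Pearson) that reflect counting error alone, and differences between groups of genes were not tested.

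Intergenic lncRNAs are transcribed by RNA polymerase II, mostly from promoters of their own, and are usually less abundant and more restricted to a tissue than mRNAs. Some serve as primary transcripts from which the Drosha and Dicer enzymes cut microRNAs, short RNAs that repress mRNAs. Others arise beside a coding promoter in the opposite direction, and some annotated units lie just past the end of a coding gene, where polymerase can still be engaged after the mRNA has been cleaved.

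The libraries carried hemocyte transcripts. Of 10 hemocyte markers, 9 had at least 1 FPKM in both GRO-seq libraries, with summed levels of 824 FPKM in Sample3 and 1533 in Sample4, and NimC1, with 0.93 and 0.76 FPKM, was the exception. The 3 fat body markers were listed at 0, and none of the 3 muscle markers reached 1 FPKM. Of 3 neuron markers, elav had 10.1 FPKM in either library, above the hemocyte marker Pxn (2.84 and 3.59 FPKM), and nSyb and Syt1 stayed below 1 FPKM. Of 3 germline markers, bam had 1.43 and 1.60 FPKM, and vas and nos stayed below 1 FPKM. The totals behind the FPKM values, recovered from the smallest steps in the table, were 6572478 reads in Sample3 and 2474836 in Sample4. A single read in the member of median length was worth 0.239 FPKM in Sample3 and 0.634 in Sample4. The 5'GRO-seq libraries held 13979543 and 6710787 reads.

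The label intergenic held for the deposited table but not fully for a later annotation. By accession, 1330 members were found in the RefSeq gene table of Release 6, where 1296 are classed as lncRNA and 34 as antisense RNA. In that assembly 154 of the 1330 (11.6%, 9.91 to 13.4%) overlapped the range of a protein-coding gene on either strand. Of these 154, 43 (27.9%, 21.0 to 35.7%) had at least 1 FPKM in both libraries, against 120 of 1176 (10.2%, 8.53 to 12.1%) without such an overlap. CR44034, with 33.6 FPKM in Sample3 and 44.3 in Sample4, overlaps the range of InR, the insulin receptor gene, in Release 6. Reads of a longer coding isoform on the same strand cannot be told apart from reads of such a member. For the 154 overlaps, the Release 6 table gives no strand. Whether the authors counted by strand is not stated, and 56 members overlap another noncoding row on the opposite strand. CR43423, which lies inside CR43334 on the opposite strand, had 4.66 FPKM in Sample3 and 8.74 in Sample4. CR43334 itself had 143 and 157 FPKM, so at this pair its level did not appear in the row on the other strand.

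Most intergenic lncRNA genes were listed at 0 in both GRO-seq libraries, and a small set had levels above the median of transcribed coding genes. In both libraries 846 of 1365 members (62.0%, 59.3 to 64.6%) were listed at 0, against 25.2% of all rows and 20.9% of coding rows. At least 1 FPKM in both was reached by 173 members (12.7%, 10.9 to 14.6%), against 50.7% of all rows and 55.0% of coding rows. At least 10 FPKM in both was reached by 34 members (2.49%, 1.73 to 3.46%), against 29.6% (28.8 to 30.4%) of coding rows. The lncRNA rows that overlap coding rows stood between, with 30.5% at 1 FPKM or more and 37.3% at 0.

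Members were shorter than coding rows, which limits what could be seen at this depth. They had a median span of 638 bp (quartiles 437 and 997), and coding rows one of 2018 bp. For members at 0 in Sample4, 3 reads would have been worth a median of 2.02 FPKM, so a level of 1 FPKM would have meant fewer than 3 reads in many of them. The threshold of 1 FPKM set no such minimum, and a member that reached it in both libraries could rest on 1 read in Sample4. Among rows of 200 to 1000 bp, 691 of 1026 members (67.3%) and 1350 of 2860 coding rows (47.2%) were at 0 in both. In this length class 119 members (11.6%, 9.70 to 13.7%) and 949 coding rows (33.2%, 31.5 to 34.9%) had at least 1 FPKM in both. A further 191 members had a value above 0 in Sample3 alone and 36 in Sample4 alone, the shallower library.

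The 173 members at or above 1 FPKM in both libraries are called transcribed below. Their median levels were 4.97 FPKM in Sample3 (quartiles 2.34 and 12.8) and 4.62 FPKM in Sample4 (quartiles 2.31 and 10.49), against 13.2 and 12.2 FPKM for coding rows chosen by the same threshold. Since the threshold chose both sets, these medians describe them and support nothing further. The lowest values rest on few reads, with a median of 26 reads per transcribed member in Sample3 and 9 in Sample4.

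**Figure D1:**
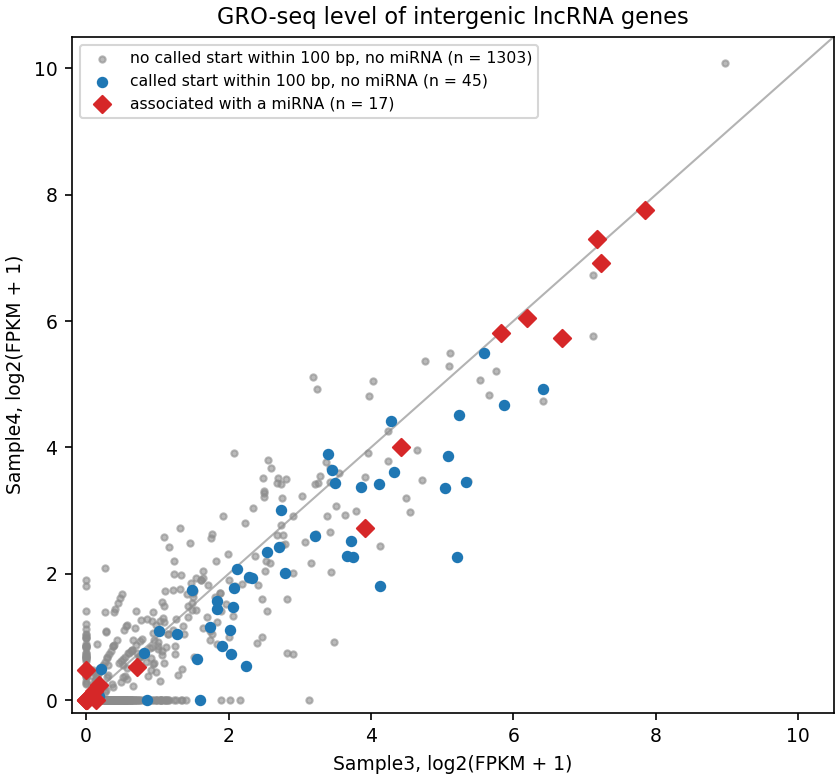
GRO-seq level of each of the 1365 intergenic lncRNA genes as log2(FPKM + 1) in Sample3 (x axis) and Sample4 (y axis). Each point is 1 gene, red diamonds are the 17 genes associated with a miRNA, blue points are the 45 other genes with a called start within 100 bp of the 5' end, and the line marks equal values. The 846 genes listed at 0 in both libraries fall on the origin, and most of the high points lie near the line.

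All members together held 39753 reads in Sample3 and 13577 in Sample4, which is 0.572% and 0.456% of the reads in gene rows. These reads were concentrated: the 15 highest members held 72.0% of them in Sample3 and 75.8% in Sample4. CR43334, the bantam transcript, alone held 32.8% and 39.6%.

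The microRNA precursors stood out in this ranking. Among the deposited rows, 15 members overlap a miRNA row on their own strand, and for 14 of them the miRNA lies wholly inside the member. Another 2 members, CR43459 and CR43314, reach a miRNA only in the longer gene models of Release 6, whose table gives no strand. Of these 17 members, 8 were transcribed and the other 9 stayed at or below 0.65 FPKM in either library. The 8 transcribed members included 6 of the 15 highest, and the 17 together held 55.9% of the members' reads in Sample3 and 59.4% in Sample4. Without them 165 of 1348 members were transcribed.

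CR43334 (3L, 628470 to 642303, plus strand, dm3) ends at bantam, a miRNA that promotes growth and blocks cell death. The gene had 143 FPKM in Sample3 and 157 in Sample4, from 13028 and 5382 reads, a ratio of 1.10 between the libraries. The bantam hairpin row itself, 13738 bp from the annotated 5' end, had 240 and 141 FPKM, from 126 and 28 reads. The hairpin at the far end of this 13834 bp unit was thus also high in both libraries. A start was called 35 bp upstream of the annotated 5' end in replicate 1 and none within 100 bp in replicate 2.

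CR43651 (2R, 5440349 to 5441269, plus strand) had 149 FPKM in Sample3 and 119 in Sample4. It overlaps the row of mir-14, a miRNA that limits cell death and fat storage in flies, by 3 bp at its 3' end, and in Release 6 it contains it. The mir-14 row had 61.4 and 97.8 FPKM, from 25 and 15 reads, so both rows were high in both libraries. Its start was called 6 bp inside the annotated 5' end in replicate 1.

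CR43626 (3L, 3249340 to 3252400, plus strand) contains mir-282 and had 101.8 FPKM in Sample3 and 52.2 in Sample4. Its start was called exactly at the annotated base, in replicate 2 alone. It begins 296 bp past the end of CG43389, which had 1.48 and 1.18 FPKM, so the member stood far above the coding gene before it.

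CR31044 (3R, 25040284 to 25045389, plus strand) holds mir-279 and mir-996, related miRNAs known for shaping sensory neuron identity in flies. Its levels were 72.4 FPKM (Sample3) and 65.3 FPKM (Sample4). No start was called within 100 bp in either list. The hairpin rows had 118 and 16.3 FPKM for mir-279, and 46.0 and 29.5 FPKM for mir-996. Hairpin rows are short, 100 bp for mir-279 and 97 bp for mir-996, and the values rest on 77 and 29 reads in Sample3 but only 4 and 7 in Sample4.

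CR43857 (2L, 7423820 to 7425932, plus strand) contains mir-275 and had 55.8 FPKM in Sample3 and 55.1 in Sample4. The row of mir-305, which is clustered with it, starts just past its annotated 3' end at 7425972 and had 38.0 and 11.2 FPKM. That row spans 73 bp, so its Sample4 value rests on few reads. The 98 bp row of mir-275 had 17.25 and 8.33 FPKM, from 11 and 2 reads. Both lists called the start of CR43857 at 7423780, 40 bp upstream of the annotated end.

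CR43650 (2R, 12716600 to 12726999, plus strand) contains mir-8, the fly relative of the miR-200 family, which acts in growth and Wingless signalling. Its levels were 20.4 and 15.2 FPKM in Sample3 and Sample4. Both lists called its start 5 bp inside the annotated end. The next coding gene upstream on its strand, CG34460, was listed at 0 in both libraries. CR44327, which contains mir-276a, had 14.2 and 5.58 FPKM and no called start within 100 bp.

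A cluster on 3R put 2 high members in tandem with 3 miRNAs. CR45054 (5909103 to 5916247, plus strand) had 47.1 FPKM in Sample3 and 44.1 in Sample4, and both lists called its start 68 bp upstream of the annotated end. Next on the strand follow mir-317 (5916848 to 5916939) with 13.4 and 4.44 FPKM, and CR43459 (5919483 to 5920347) with 229 and 215 FPKM. CR43459 was the second highest member, with its start called 1 bp inside the annotated end in replicate 1. Further along lie mir-277, which acts on amino acid breakdown, with 46.1 and 4.08 FPKM, and mir-34, known from ageing neurons, with 15.5 and 12.4 FPKM. Both are within CR43459 in Release 6 but beyond its 865 bp row in dm3. The rows of these 3 miRNAs span only 92 to 100 bp, so their Sample4 values rest on few reads. In the 98 bp row of mir-275, 8.33 FPKM in Sample4 came from 2 reads.

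The other 9 miRNA members include precursors known from other tissues or stages. CR45361 contains mir-1, the muscle miRNA, and was listed at 0 in Sample3 and at 0.39 FPKM in Sample4. CR44504 carries the mir-309 cluster of 8 miRNAs, which clears maternal mRNAs in the early embryo, and had 0.14 and 0.18 FPKM. CR42651, with mir-10 of the Hox complex, had 0.08 and 0.11 FPKM. CR45345 with mir-375, CR43270 with mir-958 and CR44175 with mir-997 were listed at 0 in both libraries. CR43314, the highest of the 9, had 0.65 and 0.43 FPKM. A called start within 100 bp was present at 6 of the 8 transcribed miRNA members and at 0 of these 9, which allows a share of up to 33.6% by the exact interval. CR44846, which overlaps mir-968 and mir-1002 on the opposite strand, was not counted and had 0.13 and 0.06 FPKM.

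**Figure D2:**
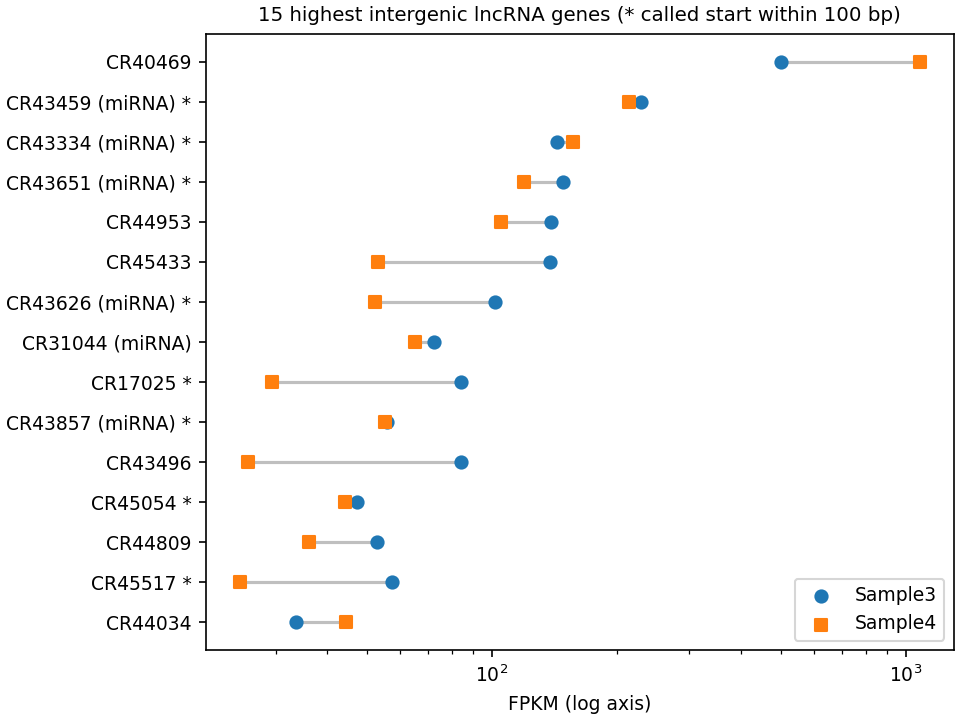
FPKM of the 15 intergenic lncRNA genes with the highest mean, on a log axis, with Sample3 as circles and Sample4 as squares joined by a line. Genes associated with a miRNA and genes with a called start within 100 bp (star) are marked; 6 of the 15 are associated with a miRNA and 8 carry a called start.

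Among the 15 highest, 9 members had no associated miRNA. CR40469 (X, 18880 to 19093, plus strand), near the end of the chromosome, was the highest, with 500 FPKM in Sample3 and 1081 in Sample4, from 700 and 570 reads. No start was called within 100 bp of its 5' end, and the nearest coding gene, CG17636, was listed at 0.

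CR44953 (3R, 25580912 to 25584762, minus strand) had 139 FPKM in Sample3 and 105 in Sample4 over 3851 bp, and its 3505 reads in Sample3 were second to CR43334 among all members. CR45433 had 138 and 53.1 FPKM and begins 533 bp past the end of Papss, which makes the sulfate donor of the cell and had 7.45 and 2.50 FPKM. CR17025 had 84.1 and 29.4 FPKM and CR43496 had 84.3 and 25.7 FPKM, so both were higher in Sample3 (by 2.86 and 3.28 times). CR44809 had 52.8 and 36.2 FPKM beside Clamp, the zinc finger gene of X-chromosome dosage compensation, whose 5' end lies 525 bp away on the other strand and which had 57.6 and 42.1 FPKM. CR45517 had 57.3 and 24.6 FPKM, with its start called 65 bp inside the annotated end in both lists.

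Transcribed members differed between the GRO-seq libraries with a larger SD than coding genes, which were not matched to them by reads. Over the 173 members, log2(FPKM + 1) correlated between the libraries with a Pearson r of 0.873 and a Spearman rho of 0.815, across genes, which are not independent replicates. The difference Sample4 minus Sample3 had a median of -0.10 and an SD of 0.79 on the log2 scale, against a median of -0.09 and an SD of 0.60 for coding rows. For the 12 members with 100 or more reads in both libraries the SD was 0.49.

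Among members of at least 1 FPKM in both libraries, the 5 largest differences were found at CR44748, CR44784, CR45642, CR44127 and CR43727, and 4 of these were lower in Sample4. CR44127 had 36.0 FPKM in Sample3 and 3.82 in Sample4, from 75 and 3 reads, CR43727 had 16.4 and 2.50 FPKM, and CR44784 had 39.5 and 9.90 FPKM. CR45642 went the other way, with 8.14 and 33.8 FPKM, and CR44748 had 40.2 and 10.0 FPKM. With 1 value per library these differences have no replicate check.

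Members lay at a median of 3840 bp from the nearest coding 5' end (quartiles 1488 and 8795 bp). Transcribed members lay at a median of 2941 bp, members at 0 at 4171 bp, and coding rows at 1723 bp from the next coding 5' end. The nearest coding 5' end was divergent, on the opposite strand and upstream, for 511 members (37.4%, 34.9 to 40.1%), against 42.8% of coding rows. It was on the same strand downstream for 376 members and upstream for 271, and convergent for 207. CR43983 and CG43982 were the closest pair, with 5' ends 1 bp apart and both listed at 0. CR40719, on unplaced sequence, lay farthest, at 606893 bp, and was at 0.

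**Figure D3:**
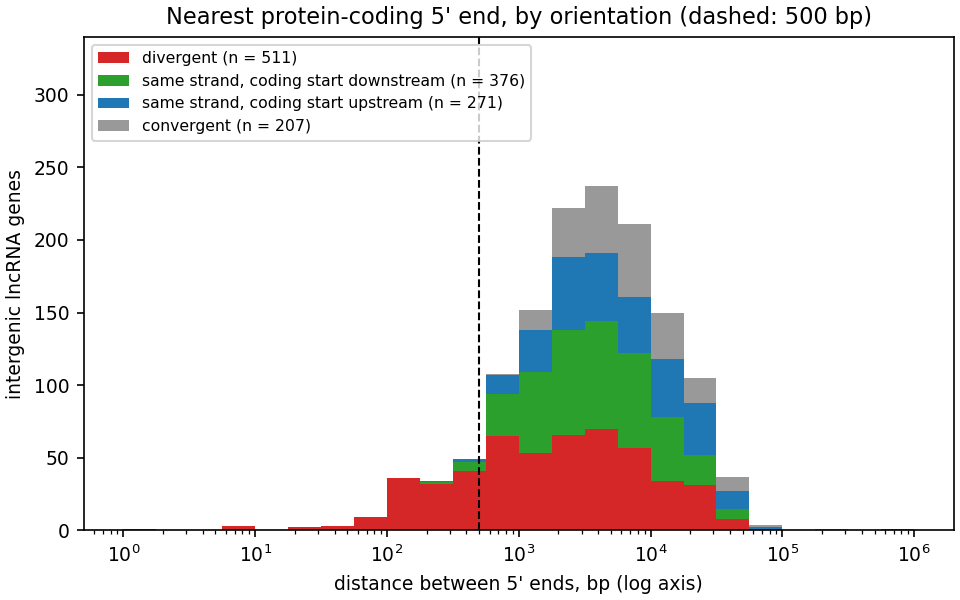
Distance from the 5' end of each of the 1365 intergenic lncRNA genes to the nearest protein-coding 5' end, in bp on a log axis, with the number of genes on the y axis. Bars are stacked by orientation and the dashed line marks 500 bp; left of it nearly all genes are divergent (113 against 6 others).

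Divergent pairs within 500 bp numbered 113 (8.28%, 6.87 to 9.87%), against 20.2% of coding rows that have a head-to-head coding neighbour at this distance. The median gap between 5' ends in these pairs was 183 bp. Of the 113 members 23 were transcribed (20.4%, 13.4 to 29.0%), against 150 of 1252 other members (12.0%, 10.2 to 13.9%). The shares differed more by the level of the coding partner. Where the partner had at least 1 FPKM in both libraries, 17 of 42 members were transcribed (40.5%, 25.6 to 56.7%), and where it did not, 6 of 71 were (8.45%, 3.17 to 17.5%).

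This gap was not confined to close pairs. Divergent members at 500 to 2000 bp were transcribed in 21 of 69 cases (30.4%, 19.9 to 42.7%) beside a transcribed coding gene, and in 3 of 74 (4.05%, 0.844 to 11.4%) beside one below 1 FPKM. Over 10000 bp the numbers were 9 of 32 (28.1%, 13.8 to 46.8%) and 1 of 41 (2.44%, 0.0617 to 12.9%). For all orientations and distances together, 131 of 487 members (26.9%, 23.0 to 31.1%) were transcribed where the nearest coding gene was, and 42 of 878 (4.78%, 3.47 to 6.41%) where it was not. The gap was smaller in some classes: convergent members at 2000 to 10000 bp gave 7 of 60 (11.7%, 4.82 to 22.6%) and 4 of 67 (5.97%, 1.65 to 14.6%), and over 10000 bp 4 of 22 and 4 of 40. Where the nearest coding 5' end lay downstream on the same strand at 500 to 2000 bp, the counts were 3 of 26 (11.5%, 2.45 to 30.1%) and 5 of 77 (6.49%, 2.14 to 14.5%), and in these classes the intervals overlap.

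Divergent members were found on both sides of their partners in level. CR44784 (2R, 19271006 to 19271700) starts 59 bp from CG13551 and had 39.5 FPKM in Sample3 and 9.90 in Sample4, against 19.4 and 20.5 FPKM for CG13551. Its start was called at 15 bp inside the annotated end in replicate 1, and CG13551 had called starts in both lists. CR43727 starts 361 bp from Smn, the spinal muscular atrophy gene that assembles spliceosomal particles, and had 16.4 and 2.50 FPKM against 17.5 and 20.3 FPKM. Its start was called in both lists, at 57 and 62 bp, and none was called at Smn.

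CR43957 on chromosome 4 (77123 to 81600, plus strand) starts 166 bp from ci, the transcription factor of Hedgehog signalling. Its level was 11.7 FPKM in Sample3 and 3.88 FPKM in Sample4, with a start called at the annotated base in replicate 1, whereas ci had 1.62 and 0.61 FPKM. The member was higher than its partner in both libraries, and in Release 6 it is classed as antisense RNA overlapping ci. CR44655 had 7.20 and 8.37 FPKM beside the maternal zinc finger gene mamo, with 3.27 and 5.15 FPKM.

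Other partners were far above their lncRNA. CR44589 had 2.57 FPKM in Sample3 and 1.71 in Sample4, from only 4 reads and 1 read, beside CG6770 with 87.6 and 110 FPKM. CR45530 had 3.21 and 2.43 FPKM, from 7 and 2 reads, beside the ubiquitin gene Ubi-p5E with 65.1 and 33.3 FPKM. CR44851 had 1.40 and 1.43 FPKM beside the vesicle GTPase gene Rab14 with 15.7 and 21.7 FPKM, and in Release 6 it overlaps the range of Rab14. Of the 23 transcribed divergent members, 11 were below their partner in both libraries. Across the 113 pairs the Spearman correlation of mean FPKM was 0.658, and across the other 1252 members and their nearest coding gene it was 0.463. Both are descriptions over genes of the same libraries, and neighbouring genes may share their surroundings, which was not tested.

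Members just downstream of a coding gene on the same strand were also split by the level of that gene. Within 500 bp of an upstream coding 3' end there were 63 members. Where the upstream gene was transcribed, 14 of 19 members were too (73.7%, 48.8 to 90.85%), and where it was below 1 FPKM, 0 of 44 were, which allows up to 8.04% by the exact interval. From 500 to 2000 bp the counts were 16 of 49 (32.7%, 19.9 to 47.5%) and 6 of 71 (8.45%, 3.17 to 17.5%). From 2000 to 10000 bp they were 31 of 153 (20.3%, 14.2 to 27.5%) and 16 of 201 (7.96%, 4.62 to 12.6%). Over 10000 bp they were 57 of 326 (17.5%, 13.5 to 22.1%) and 30 of 494 (6.07%, 4.13 to 8.56%). The 0 depends on the threshold: at 0.5 FPKM the closest class gave 16 of 20 and 2 of 43, and at 2 FPKM 8 of 16 and 3 of 47.

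**Figure D4:**
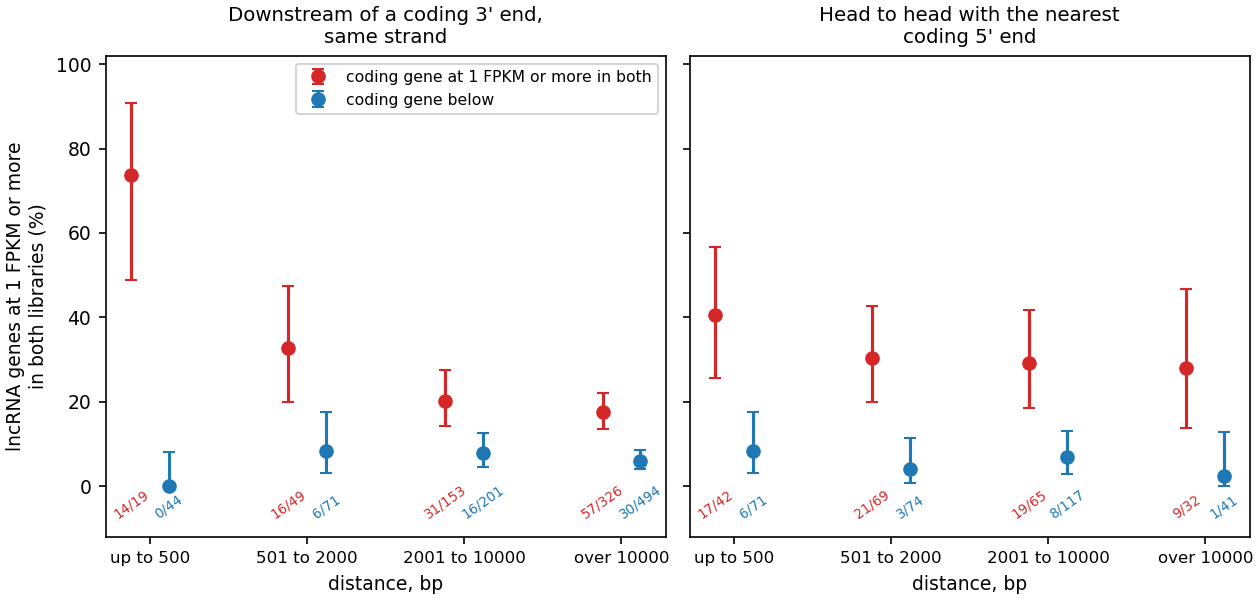
Percent of intergenic lncRNA genes with at least 1 FPKM in both GRO-seq libraries (y axis) by distance in bp, for genes downstream of a same-strand coding 3' end (left) and genes whose nearest coding 5' end is divergent (right). Red points stand for a coding gene at 1 FPKM or more in both libraries and blue points for one below; bars are 95% exact Clopper-Pearson intervals and the fractions give the counts. Red lies above blue in every class, and at left within 500 bp the counts are 14 of 19 against 0 of 44.

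The 14 transcribed members of this class differed in how they stood to the gene before them, and 9 were below it in both libraries. CR44930, 224 bp past Ama, a secreted immunoglobulin-type adhesion protein gene, had 1.86 FPKM in Sample3 and 2.31 in Sample4 against 72.8 and 95.7 for Ama. CR44608, 374 bp past RpL40, a ribosomal protein gene fused to ubiquitin, had 5.38 and 9.78 FPKM against 532 and 708. CR45677, 437 bp past the kinase-like cell cycle brake trbl, had 8.32 and 9.73 FPKM against 24.1 and 21.4. None of these 3 had a called start within 100 bp.

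Others exceeded the upstream gene. CR45517 had 57.3 FPKM in Sample3 and 24.6 in Sample4 against 2.39 and 1.15 for CG16756, 266 bp upstream. CR42868 had 12.8 and 6.98 FPKM against 2.74 and 1.62 for CG42867. CR43785 had 12.1 and 4.73 FPKM against 4.54 and 4.31 for hng3, with a start called 8 bp upstream of its annotated end in replicate 1. A transcript of the member itself and polymerase still engaged past the upstream gene cannot be told apart by FPKM. A called start within 100 bp was present at 3 of the 14, CR45517, CR43626 and CR43785.

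Called start sites were rare at intergenic lncRNA genes. The authors called sites separately in each 5'GRO-seq library, requiring 4-fold over a GRO-seq library as input, so a call also depends on the GRO-seq signal at the site. A site on the same strand within 100 bp of the annotated 5' end was present at 47 members in replicate 1 (3.44%, 2.54 to 4.55%), against 24.5% of all rows, 28.5% of coding rows and 4.5% of lncRNA rows that overlap coding rows. In replicate 2 it was present at 18 (1.32%, 0.783 to 2.08%), against 14.8%, 17.0% and 2.5% of these. In either list it was present at 51 members (3.74%, 2.79 to 4.88%), against 28.6% of all rows, 33.0% of coding rows and 6.17% of lncRNA rows that overlap coding rows. No other row of the table had its 5' end within 100 bp of these 51 on the strand.

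The share with a site was also set against coding genes of like level. Among transcribed members 40 of 173 had a replicate 1 site (23.1%, 17.1 to 30.1%), against 47.7% of transcribed coding rows, and 14 had a replicate 2 site (8.09%, 4.50 to 13.2%), against 28.9%. At a mean of 1 to 5 FPKM it was 15 of 84 members (17.9%, 10.3 to 27.7%) and 31.7% (29.1 to 34.3%) of coding rows. At 5 to 20 FPKM it was 14 of 62 (22.6%, 12.9 to 34.97%) and 51.3% (49.7 to 52.8%). At 20 FPKM or more it was 11 of 27 (40.7%, 22.4 to 61.2%) and 49.9% (47.9 to 51.9%), where the intervals overlap. In replicate 2 the shares of members in these classes were 2.38%, 9.68% and 22.2%, and of coding rows 14.8%, 31.1% and 32.5%. In neither list was a site found for 131 transcribed members.

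**Figure D5:**
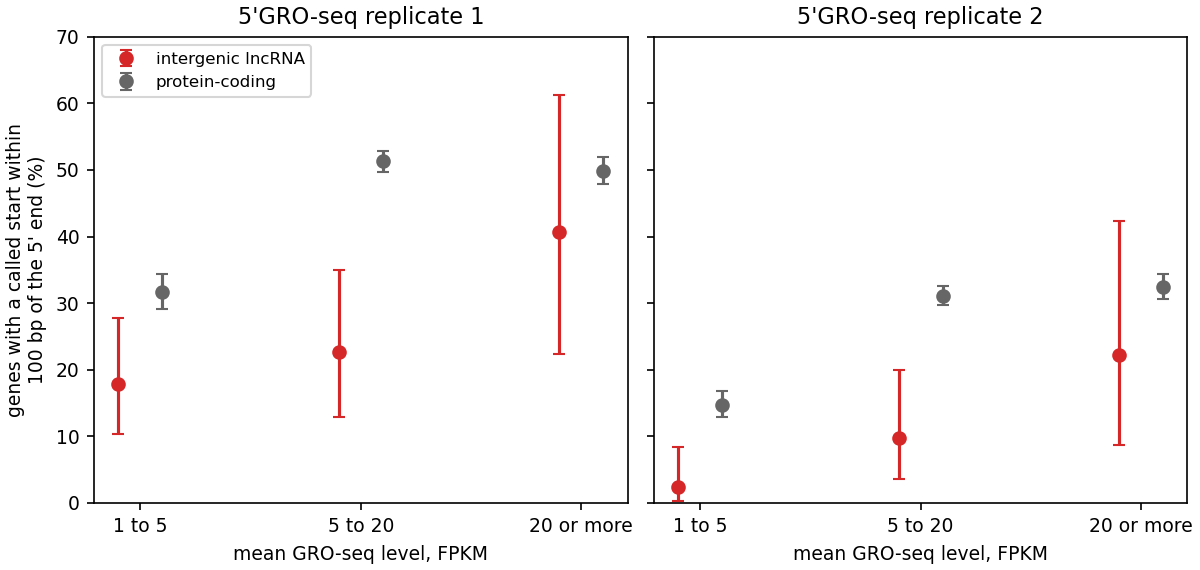
Percent of transcribed genes with a called start within 100 bp of the annotated 5' end (y axis) by mean GRO-seq level in FPKM, for 5'GRO-seq replicate 1 (left) and replicate 2 (right). Red points are intergenic lncRNA genes, grey points protein-coding genes, and bars are 95% exact Clopper-Pearson intervals; lncRNA genes lie below coding genes in all classes, with overlapping intervals at 20 FPKM or more.

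Offsets were taken only over sites within 100 bp of the annotated 5' end, so that rule limits how large they can be. Further same-strand sites lay inside members but beyond 100 bp. There were 13 in 12 members in replicate 1 and 26 in 20 members in replicate 2. In replicate 1 the median offset of the 47 sites was 0 bp (quartiles -18 and 7 bp, negative values lying upstream), and 22 of 47 (46.8%, 32.1 to 61.9%) were within 10 bp. Of these, 9 lay exactly at the annotated base. In replicate 2 the median offset was 4 bp (quartiles -12.2 and 45.2 bp), and 6 of 18 were within 10 bp.

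The lists shared 12 members with sites within 5 bp of each other (0.879%, 0.455 to 1.53%), against 7.84% of all rows, 9.15% of coding rows and 0.833% of lncRNA rows that overlap coding rows, and in 11 of them the sites lay at the same base. Of the 12, 10 were transcribed and 2, CR43857 and CR43650, are the miRNA members described above. CR43432 (3L, 14970045 to 14970731, minus strand), named marge in Release 6, had 32.8 FPKM in Sample3 and 13.5 in Sample4 and a start 5 bp inside its annotated end in both lists. CR43144 had 36.9 and 21.9 FPKM with the site 46 bp inside, and CR44904 had 18.4 and 20.4 FPKM with the site 14 bp upstream.

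The longest member was also in this group. CR44997 (X, 22059160 to 22199518, plus strand) spans 140359 bp, and both lists placed its start at 22059153, 7 bp upstream of the annotated end. Its level was 1.03 FPKM in Sample3 and 1.13 in Sample4. Because of its length this rests on about 947 and 393 reads, more than most members of higher level had. The nearest coding 5' end, that of Cda4, lies 24614 bp away, and Cda4 had 0.06 and 0.04 FPKM.

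Starts were also called at 9 members that had under 1 FPKM in at least 1 GRO-seq library. CR44762, 108 bp from the divergent gene ppa, had its site 43 bp inside the annotated end in both lists, with 2.03 FPKM in Sample3 and 0 in Sample4. CR30009 had its site at 3 bp in both lists, with 3.10 and 0.66 FPKM. CR32111, a unit of 17865 bp downstream of the Iroquois gene caup, had a site 2 bp inside its end in replicate 2 alone, with 0.14 and 0.05 FPKM.

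Sites were also counted at divergent members. Within 500 bp, 13 of 113 had one in either list (11.5%, 6.27 to 18.9%), 10 of them transcribed. The share was 3.74% over all members and 28.6% over all rows. Of these 13, 6 (46.2%, 19.2 to 74.9%) had a coding partner with a called site of its own, such as CR44316 and CG13163, where both genes had sites in both lists. Among the 23 transcribed divergent members, 11 partners had a site (47.8%, 26.8 to 69.4%). Sites were present at 33.0% of coding rows and 55.0% of transcribed coding rows, so the share of the 13 was not unusual. Beside a transcribed partner 9 of 42 members had a site (21.4%, 10.3 to 36.8%), and beside a partner below 1 FPKM 4 of 71 (5.63%, 1.56 to 13.8%).

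By chromosome arm, 8.01% (5.58 to 11.1%) of 412 members on 2L were transcribed, against 52.9% of its coding rows. The shares were 13.6% (9.43 to 18.7%) of 228 members on 2R, where 55.9% of coding rows were transcribed, and 15.2% (11.2 to 19.9%) of 283 on 3L, with 52.8%. On 3R they were 13.1% (9.23 to 18.0%) of 251 members and 54.9% of coding rows, and on X 16.6% (11.3 to 23.1%) of 169 members and 58.6%. The interval of 2L overlapped those of 2R and 3R and lay just below those of 3L and X, and the difference was not tested. Chromosome 4 had 3 of 11 (27.3%, 6.02 to 61.0%), against 67.95% of its coding rows.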

How the data were processed

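Nuclear run-on RNA of S2 cells was profiled in 4 libraries. HOMER 4.7, Bowtie2 2.1.0 and CASAVA 1.8.2 appear in the submitters' processing notes, as does genome build dm3. How reads were aligned and counted, and whether by strand, is not given in the sources used here. The authors deposited FPKM for each RefSeq row and GRO-seq library. Start sites were called with HOMER in its TSS mode, per the file headers; the deposited score was not used.

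Rows were 1-based, since 1219 of 1330 matched members had the length of the later RefSeq table. FPKM multiplied by end minus start gave whole reads for 99.94% of low values in Sample3 and 99.93% in Sample4 (tolerance 0.1 read), which set the read totals. The columns give no replicate number. Sites were the interval centres, and a site counted within 100 bp of a 5' end. A pair was divergent within 500 bp. Log values used a pseudocount of 1. Members and named genes follow fixed rules: members with a site, the 15 highest, the 5 largest differences among members of at least 1 FPKM in both libraries, divergent members with a mean of at least 1 FPKM, and the extremes of span and distance. miRNA members, tandem members and further examples were chosen after their values were seen. Members and lists were chosen with earlier results of these data known. The matching steps were tested on simulated data. Alternatives varied thresholds, distances, member rules and libraries. No sequence was used. Scripts ran in Python 3.11.15 with pandas 2.3.3, scipy 1.17.1, matplotlib 3.10.9 and numpy 2.4.6.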

Additional observations from a re-analysis of the deposited data

How the results depend on the processing

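Counts of transcribed members ranged from 201 to 219 with 1 library left out. The count was 71 at 5 FPKM, 94 of 898 members (10.47%) without a coding row within 1000 bp, and 85 where 10 reads in both libraries were required as well, a setting added after seeing the data. Sites in either list ranged from 18 to 47 members with 1 replicate left out: 18 without replicate 1, so replicate 1 supplies most of them. They numbered 78 within 500 bp, 20 in the leading part of each list by file order, and 20 of 898 without coding rows within 1000 bp. Divergent members numbered 192 within 1000 bp, 256 within 2000 bp, 69 of 915 at a span of 500 bp or more, and 0 without coding rows within 1000 bp, which that rule removes by construction. The median distance to a coding 5' end was 7318 bp on the opposite strand only, 7868 bp on the same strand only and 5980 bp without coding rows within 1000 bp. The median level was 0 FPKM over all members, also with either library left out (0 to 0), and 2.08 FPKM over members above 0 in both. Of 66 alternatives, 50 kept their value within 1.5 times, within the spread or within the main interval, and 16 moved beyond it. Leaving out members that overlap a coding gene in Release 6, added after seeing the data, gave 11 of 14 and 0 of 38 for members within 500 bp downstream of a coding gene, and 10 of 30 and 4 of 63 for divergent members. At 2 FPKM the latter class gave 2.67% beside a partner below it. No paired analysis was possible because the GRO-seq columns carry no replicate number and no test was made. Depth limits short members most, and Sample4 more than Sample3.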
